A study of Mus musculus with 38 samples.

Results

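Cholesterol synthesis genes were examined in 2 brain regions of mice carrying extra copies of Ube3a. The genes were Hmgcs1, Idi1, Sqle, Lss, Cyp51, Dhcr7, and Insig1, chosen by gene symbol, 7 of the 54165 genes in the count table. All 7 had enough reads to be tested in PFC and in Hypo. Each of the first 6 encodes an enzyme of the pathway, and Insig1 encodes a sterol sensor. None encodes a receptor or transporter for cholesterol uptake.

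RNA-seq libraries came from the prefrontal cortex (PFC) of 20 mice and from the hypothalamus (Hypo) of 18 mice, 38 libraries from 25 adult FVB/NJ mice, of which 13 gave both tissues. Ube3a2X mice were homozygous for a Ube3a transgene and were compared with WT littermates. In PFC there were 5 WT females, 5 WT males, 5 Ube3a2X females, and 5 Ube3a2X males, and in Hypo there were 4 WT females, 4 WT males, 5 Ube3a2X females, and 5 Ube3a2X males. The labels name no treatment, and all Ube3a2X mice belonged to a single transgenic line.

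Cholesterol barely crosses the blood-brain barrier, so the brain makes its own. The mevalonate branch builds isoprenoid units, the squalene branch joins and cyclizes them, and a series of sterol enzymes turns lanosterol into cholesterol. When sterol in the endoplasmic reticulum falls, sterol regulatory element-binding proteins (SREBPs) are cleaved and raise transcription of most of these enzymes, and the Insig proteins hold the SREBP complex back while sterol is plentiful. In the adult brain, oligodendrocytes and astrocytes are major producers.

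The promoter of Hmgcs1 was the only one among these genes with an exact match to the sterol regulatory element searched. RefSeq promoter windows (GRCm38.p6, 250 bases before to 50 bases after each annotated start) were held for 6 of the 7 genes, all but Sqle. The sterol regulatory element TCACNCCAC and the CCAAT box, which binds the SREBP partner NF-Y, were searched on both strands. In the windows below, capitals mark these matches, with the CCAAT box on the minus strand written ATTGG. They are shown because Hmgcs1 and Idi1, both of the mevalonate branch, varied together across libraries of both tissues.
Hmgcs1, chr13:119690101-119690400, plus strand: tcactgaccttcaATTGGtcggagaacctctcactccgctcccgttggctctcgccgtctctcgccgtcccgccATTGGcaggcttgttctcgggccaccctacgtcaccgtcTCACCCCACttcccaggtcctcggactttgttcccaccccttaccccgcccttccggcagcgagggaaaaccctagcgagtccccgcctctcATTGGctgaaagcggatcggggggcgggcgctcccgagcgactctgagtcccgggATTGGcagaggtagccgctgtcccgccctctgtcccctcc
Idi1, chr13:8885356-8885655, plus strand: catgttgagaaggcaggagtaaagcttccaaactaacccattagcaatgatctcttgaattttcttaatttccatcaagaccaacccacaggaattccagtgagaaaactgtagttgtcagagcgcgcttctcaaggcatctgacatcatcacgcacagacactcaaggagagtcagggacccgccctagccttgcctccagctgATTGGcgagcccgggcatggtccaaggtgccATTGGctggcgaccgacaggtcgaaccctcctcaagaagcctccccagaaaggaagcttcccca
The Hmgcs1 window held the sterol element as TCACCCCAC, starting at -137 from the transcription start, with 4 CCAAT boxes, and no match overlapped another. The Idi1 window held 2 CCAAT boxes and no sterol element in these letters. A sterol element was present in 1 of 6 genes with a window, against 1.436% of 27025 mouse genes. A CCAAT box was present in 6 of 6, against 41.058% of genes; for Dhcr7 it lay in 1 of 3 windows.

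Depth was 36.9 to 69.1 M counted reads (M, 1e+06 reads) in PFC and 39.0 to 380.8 M in Hypo, and the 7 genes had 424 reads or more in every library. Ube3a itself separated the genotypes as labelled, at 109 to 352 CPM (counts per 1e+06 scaled reads) in WT libraries and 666 to 2249 CPM in Ube3a2X libraries. Hypothalamus markers summed to 482 to 2192 CPM in Hypo and 1.09 to 3.89 CPM in PFC, in accord with the tissue labels. The Hypo library of WT female 471 stood apart from the rest. Its median correlation with the other Hypo libraries over genes was 0.916, against 0.978 to 0.994 for the others, its hypothalamus markers summed to 2192 CPM against 482 to 930 CPM, and 37.5% of its bases were coding against 46.2 to 51.1%. Values without it are given beside the main results that rest on Hypo. Reads of an opposite-strand partner cannot be told apart if the counting ignored strand: Hmgcs1 shares 557 exon bases with Gm48342, Idi1 shares 323 with Gm48574, Lss shares 381 with 4930483K19Rik, and Cyp51 shares 166 with Akap9.

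**Figure D1:**
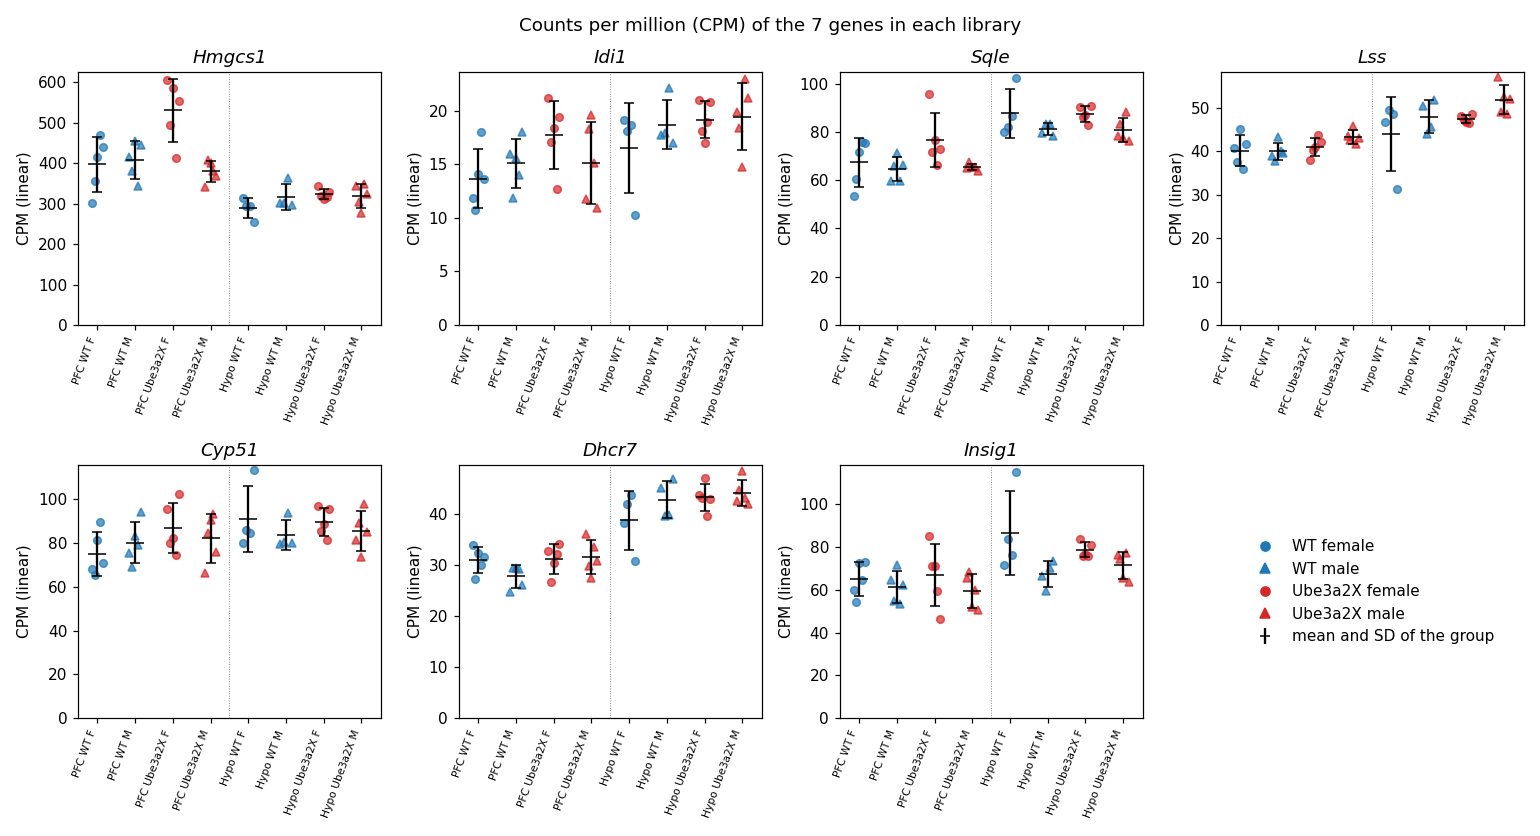
CPM (y axis, linear, from 0) of each of the 7 genes in every library, by tissue, genotype, and sex (x axis). Points are libraries, circles for females and triangles for males, and the bars give the mean and SD of each group. Hmgcs1 sits higher in PFC, Dhcr7 sits higher in Hypo, and PFC Ube3a2X females reach 606 CPM of Hmgcs1.

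Hypo was then compared with PFC. Hmgcs1 was lower in Hypo, Sqle, Lss, Dhcr7, and Insig1 were higher, and Idi1 and Cyp51 did not pass the test (edgeR quasi-likelihood test with RNA integrity number, RIN, as covariate, adjusted p below 0.05). Thus 4 genes were higher and 1 was lower in this fit without a mouse block (2 were called with it in edgeR, given below). Among all 14219 genes tested, 35.6% were higher in Hypo, 32.8% were lower, and 68.4% differed in either direction. With 5 of 7 genes called, the share was near this background. The median log2 fold change of the 7 genes was 0.24 and that of all genes was 0.02. Hypo and PFC also differed in how the tissue was taken (tweezers or micropunches), the extraction kit, and the RNA input, and these cannot be told apart from the tissue. RIN was 6.8 to 9.3 (median 8.95) in Hypo and 6.7 to 8.9 (median 7.6) in PFC. Other quality measures also moved with the tissue. The ratio of 5' to 3' coverage had a median of 0.735 in Hypo and 0.442 in PFC, AT dropout, a score of missing AT-rich sequence, 21.4 and 18.2, correct-strand reads 98.4% and 93.7%, and intronic bases 5.70% and 4.08%. Their part in the tissue differences was not tested, apart from a fit with the GC and length trend removed, in which the same 5 genes were called.

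Hmgcs1 (ENSMUSG00000093930, chr13:119690379-119708260, GRCm38, plus strand) encodes the cytosolic HMG-CoA synthase, which feeds the mevalonate branch. In PFC, the WT females had 303, 357, 415, 441, and 471 CPM and the WT males had 342, 382, 415, 444, and 455 CPM. The PFC Ube3a2X females had 414, 495, 554, 585, and 606 CPM and the Ube3a2X males had 342, 368, 380.2, 401, and 407 CPM. The Ube3a2X females were thus the highest group, with 4 of 5 libraries above every other library in the series. In Hypo, the WT females had 253, 294, 295, and 315 CPM and the WT males had 297, 301, 303, and 364 CPM. The Hypo Ube3a2X females had 311, 318, 320.2, 329, and 345 CPM and the Ube3a2X males had 277, 305, 325, 343, and 349 CPM. The tissue ranges overlapped between 303 and 364 CPM. The log2 fold change, Hypo over PFC, was -0.50 (SE 0.0846, adjusted p = 2.99e-06), a fold of 0.705. Hmgcs1 was called lower in Hypo in all 4 groups of sex and genotype, with log2 fold changes of -0.50 in WT females, -0.41 in WT males, -0.78 in Ube3a2X females, and -0.33 in Ube3a2X males.

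Idi1 (ENSMUSG00000058258, chr13:8885501-8892451, plus strand) encodes the isomerase that interconverts the isoprenoid building blocks. It had 10.7 to 21.2 CPM in PFC (median 15.4, n = 20) and 10.3 to 23.0 CPM in Hypo (median 18.5, n = 18). The lowest Hypo value was that of WT female 471, and the other 17 Hypo libraries had 14.8 to 23.0 CPM. The log2 fold change was 0.20 (SE 0.137, adjusted p = 0.190), with a 95% interval from -0.08 to 0.48.

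Sqle and Lss, both of the squalene branch, were higher in Hypo. Sqle (ENSMUSG00000022351, chr15:59315077-59331192, plus strand) encodes squalene epoxidase, a rate-limiting oxygen-dependent step. It had 53.3 to 95.6 CPM in PFC (median 66.3) and 76.3 to 102 CPM in Hypo (median 83.3), and a single PFC library, Ube3a2X female 272, lay above 17 of the 18 Hypo libraries. Its log2 fold change was 0.25 (SE 0.0711, adjusted p = 0.00247). Lss (ENSMUSG00000033105, chr10:76531588-76557138, plus strand) encodes lanosterol synthase, which closes the sterol rings. It had 35.9 to 45.9 CPM in PFC (median 41.3) and 31.3 to 57.0 CPM in Hypo (median 48.6), with 15 of 18 Hypo libraries above the highest PFC library. Its log2 fold change was 0.24 (SE 0.0674, adjusted p = 0.00189).

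The sterol enzymes downstream of lanosterol differed from each other. Cyp51 (ENSMUSG00000001467, chr5:4081145-4104746, minus strand) encodes lanosterol demethylase. It had 65.2 to 102 CPM in PFC (median 80.5) and 73.8 to 113 CPM in Hypo (median 85.4), nearly the same span. Its log2 fold change was 0.03 (SE 0.0874, adjusted p = 0.795), with a 95% interval from -0.15 to 0.21.

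Dhcr7 (ENSMUSG00000058454, chr7:143823145-143848410, plus strand) encodes the reductase of the last step to cholesterol. In PFC, the WT females had 27.3, 30.1, 31.6, 32.4, and 34.0 CPM and the WT males had 24.7, 26.2, 29.3, 29.4, and 29.5 CPM. The PFC Ube3a2X females had 26.6, 30.4, 32.2, 32.7, and 34.2 CPM and the Ube3a2X males had 27.5, 29.9, 30.7, 33.7, and 36.1 CPM. The PFC WT males were the lowest group, with all 5 libraries below 4 of 5 libraries in each other PFC group. In Hypo, the WT females had 30.9, 38.4, 42.0, and 43.8 CPM and the WT males had 39.7, 39.8, 45.0, and 46.9 CPM. The Hypo Ube3a2X females had 39.6, 43.0, 43.2, 43.7, and 47.1 CPM and the Ube3a2X males had 41.9, 42.6, 43.1, 44.7, and 48.4 CPM. The tissues overlapped through WT female 471 at 30.9 CPM, and the other 17 Hypo libraries lay above every PFC library. The log2 fold change was 0.55 (SE 0.0699, adjusted p = 1.83e-08), a fold of 1.46. Dhcr7 was called higher in all 4 groups of sex and genotype, with log2 fold changes from 0.38 in WT females to 0.67 in WT males.

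Insig1 (ENSMUSG00000045294, chr5:28071363-28078662, plus strand) encodes the endoplasmic reticulum protein that retains the SREBP complex and is itself an SREBP target. It had 46.5 to 85.5 CPM in PFC (median 63.5) and 59.4 to 115 CPM in Hypo (median 76.1), and WT female 471 was the highest of all libraries. The other 17 Hypo libraries had 59.4 to 83.9 CPM. Its log2 fold change was 0.32 (SE 0.103, adjusted p = 0.00718).

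Within single groups, 3 genes were higher and 1 was lower in WT females and again in WT males, and 2 were higher and 1 was lower in Ube3a2X females and again in Ube3a2X males. The share of all genes called was 56.4% in WT females, 56.5% in WT males, 57.5% in Ube3a2X females, and 52.5% in Ube3a2X males. Insig1 was called in WT females, at a log2 fold change of 0.46 (adjusted p = 0.00949), and in none of the other 3 groups, a difference between groups that was not tested; without WT female 471 it was 0.30 (adjusted p = 0.0597). Without that library, WT females still had 3 genes higher and 1 lower, with Lss (0.27, adjusted p = 0.00252) called in place of Insig1, and log2 fold changes of -0.45 for Hmgcs1, 0.27 for Sqle, and 0.45 for Dhcr7. Whether the tissue difference depends on genotype is given below as the difference of the genotype effects.

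Without WT female 471, the same 5 genes were called over all groups, with log2 fold changes of -0.50 for Hmgcs1, 0.24 for Sqle, 0.25 for Lss, 0.55 for Dhcr7, and 0.30 for Insig1. Idi1 (0.21, adjusted p = 0.114) and Cyp51 (0.01, adjusted p = 0.881) again did not pass. Without WT male 423, whose RIN of 6.8 was the lowest in Hypo and followed by 8.8, Lss (0.19, adjusted p = 0.0575) and Insig1 (0.28, adjusted p = 0.0736) were no longer called. Leaving out each of the other libraries kept these 5 calls, and without PFC Ube3a2X male 258 Idi1 passed as well (0.31, adjusted p = 0.0468).

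The 13 mice with both tissues gave the same contrast within the animal. Lss and Dhcr7 were higher in Hypo in 13 of 13 mice, Sqle and Insig1 in 12, Idi1 and Cyp51 in 10, and Hmgcs1 in 1. The within-mouse log2 difference, without RIN in the model, ranged from 0.24 to 0.87 for Dhcr7, from 0.09 to 0.39 for Lss, and from -0.91 to 0.01 for Hmgcs1. With the mouse as a replicate block and RIN kept in the edgeR fit, Sqle (log2 fold change 0.36, adjusted p = 0.0272) and Dhcr7 (0.52, adjusted p = 0.0274) remained called. In that paired fit Hmgcs1 (-0.39, adjusted p = 0.0614), Lss (0.20, adjusted p = 0.176), and Insig1 (0.39, adjusted p = 0.0796) did not pass, whereas with the mouse as a random effect in limma-voom the same 5 genes as in the unpaired fit passed.

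**Figure D2:**
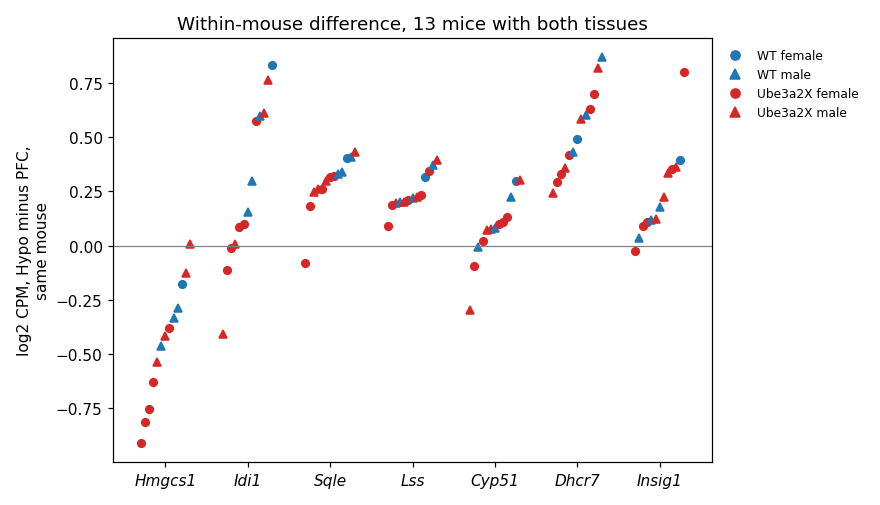
Difference in log2 CPM between Hypo and PFC of the same mouse (y axis) for each gene (x axis), 1 point per mouse in 13 mice, ordered by size within each gene. Dhcr7 and Lss lie above 0 in all mice and Hmgcs1 lies below 0 in 12 of 13.

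Levels were compared between genes per kilobase of exon. Hmgcs1 was the highest, at 93.4 ± 17.6 CPM per kilobase in PFC (SD, n = 20) and 68.2 ± 5.89 in Hypo (SD, n = 18). Next in PFC came Insig1 (20.4 ± 3.12), Cyp51 (18.3 ± 2.41), and Sqle (12.4 ± 1.58), then Dhcr7 (5.23 ± 0.516), Idi1 (4.40 ± 0.914), and Lss (3.81 ± 0.245). In PFC, Insig1 and Cyp51 differed by less than the SD of either. Dhcr7 and Idi1, and Idi1 and Lss, differed by less than the SD of Idi1 and by more than that of the other gene. In Hypo the order was the same, with Insig1 at 24.6 ± 3.81, Cyp51 at 19.8 ± 2.10, Sqle at 15.2 ± 1.14, Dhcr7 at 7.30 ± 0.682, Idi1 at 5.30 ± 0.826, and Lss at 4.45 ± 0.477. The order was kept without WT female 471 (n = 17), with Hmgcs1 at 69.0 ± 5.06, Insig1 at 23.8 ± 2.21, Cyp51 at 19.4 ± 1.56, Sqle at 15.01 ± 0.813, Dhcr7 at 7.41 ± 0.483, Idi1 at 5.44 ± 0.595, and Lss at 4.54 ± 0.288. The order below Hmgcs1 depends on the length used. Per kilobase of the longest coding transcript, Sqle had the next highest mean in PFC (24.9 ± 3.18) and in Hypo (30.6 ± 2.28), apart from Insig1 (23.4 ± 3.58 and 28.2 ± 4.36) by less than the SD of Insig1, and Lss (8.81 and 10.3) lay above Idi1 (5.09 and 6.14).

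The rest of the pathway was read from gene lists. Of 5 other mevalonate genes, Pmvk, encoding phosphomevalonate kinase, was higher in Hypo (log2 fold change 0.34, adjusted p = 0.0137) and 4 did not pass. The list median was 0.12, against 0.02 for all genes. Of 9 other squalene and sterol genes, Lbr, encoding a sterol reductase of the inner nuclear membrane, was higher (0.50, adjusted p = 1.10e-07), Hsd17b7, encoding a sterol ketoreductase, was lower (-0.96, adjusted p = 4.11e-11), and 7 did not pass, with a list median of 0.00. The synthesis enzymes outside the 7 genes were thus mostly not called, with 3 of 14 past the threshold, below the 68.4% of all genes.

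Among 4 sterol sensing genes, Srebf1, encoding SREBP-1, was higher in Hypo (log2 fold change 1.38, adjusted p = 1.51e-11), as was Insig2 (0.21, adjusted p = 0.00111), while Scap and Stard4 did not pass. Among 8 genes of sterol export and turnover, 4 were higher and 3 were lower. The cholesterol exporter Abca1 (1.01, adjusted p = 1.05e-07) and the acyltransferase gene Soat1 (0.52, adjusted p = 1.89e-06) had the smallest p of those higher. Cyp46a1, encoding the neuronal cholesterol hydroxylase, was lower (-1.15, adjusted p = 1.17e-10), as was Mylip, encoding a ubiquitin ligase (-0.76, adjusted p = 7.56e-10). Among 9 fatty acid synthesis genes, 6 were higher and 1 was lower, with the smallest p for the desaturase genes Scd2 (0.75, adjusted p = 1.06e-11) and Fads2 (0.82, adjusted p = 7.51e-11), and Acss2, encoding acetyl-CoA synthetase, was lower (-0.14, adjusted p = 0.0290). Leaving out WT female 471 kept every call in these 5 lists and added 1, Acaca, encoding acetyl-CoA carboxylase (0.26, adjusted p = 0.00189), a gene named after its value was seen.

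**Figure D3:**
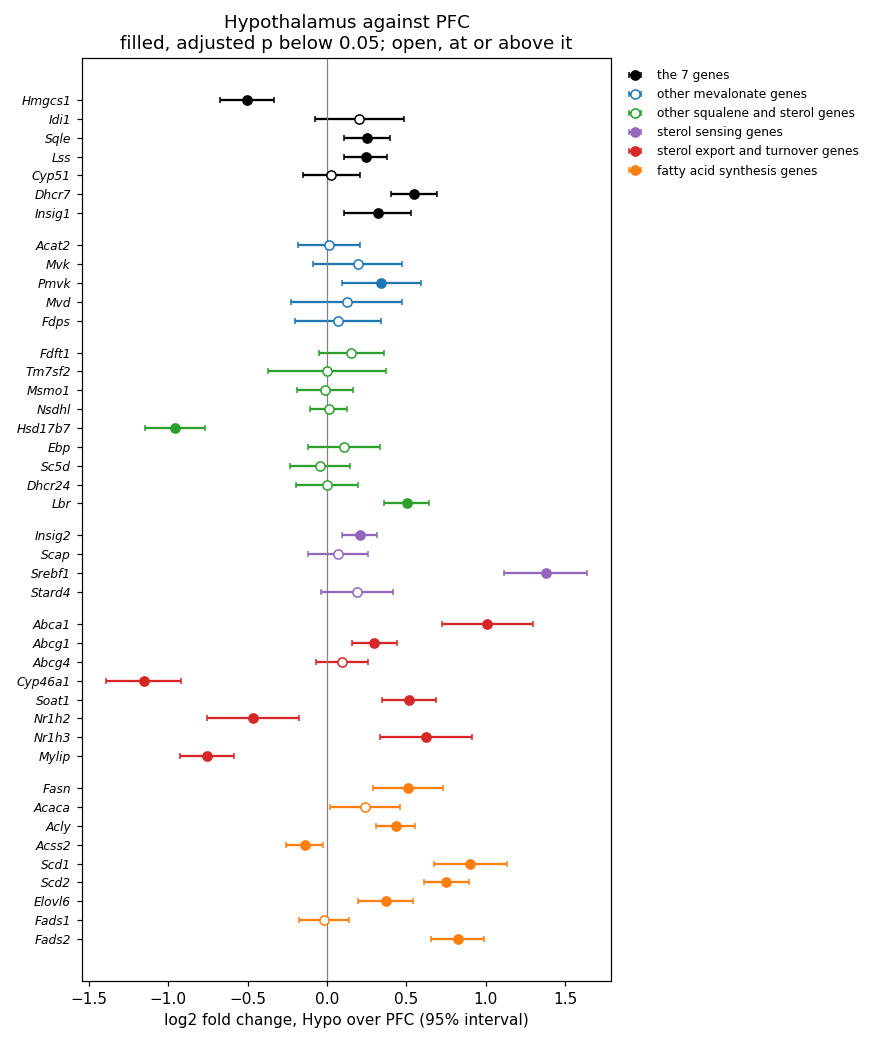
Log2 fold change, Hypo over PFC (x axis), with 95% interval, for the 7 genes and 35 other genes of sterol and fatty acid metabolism (y axis), colored by list. Filled points passed the test. Most synthesis enzymes lie within 0.5 of 0, while Srebf1 lies at 1.38 and Cyp46a1 at -1.15.

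Markers of brain cell types moved with the tissue. All 10 oligodendrocyte markers were higher in Hypo, summing to 2213 to 3820 CPM against 551 to 2060 CPM in PFC, and 5 of 8 astrocyte markers were higher, summing to 2648 to 3174 CPM against 1553 to 3272 CPM. Of 8 neuron markers, 7 were lower, summing to 5293 to 6355 CPM against 11263 to 16489 CPM, and 6 of 6 cortical excitatory markers were lower. All 6 oligodendrocyte precursor markers were higher, summing to 255 to 313 CPM against 154 to 279 CPM. Of 6 microglia markers, 4 were lower, summing to 235 to 302 CPM against 285 to 441 CPM, and of 6 endothelial markers, 5 were lower, summing to 153 to 202 CPM against 178 to 422 CPM. Inhibitory neuron markers were mixed, with 2 of 6 higher and 2 lower, summing to 655 to 1267 CPM against 771 to 1046 CPM. When WT female 471 was left out these calls were kept and 1 more inhibitory marker, Sst, was lower, and the Hypo sums ended at 3306 CPM for oligodendrocyte and 292 CPM for microglia markers and began at 5610 CPM for neuron markers. No marker of these lists was at 0 over the libraries of either tissue. In bulk tissue, fewer cells of a type and less RNA per cell cannot be told apart, and the part of cell composition in the tissue differences was not tested.

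Ube3a2X was then compared with WT in each tissue, over both sexes and in each. None of the 7 genes passed the edgeR test in PFC, where 0.0156% of all genes were called over both sexes, 0.117% in males, and 0.0078% in females. None passed in Hypo, where 0.00716% of all genes were called over both sexes, 0% in males, and 0.00716% in females. At an unadjusted p below 0.05 the count was 0 of 7 over both sexes in either tissue, 1 in PFC females (Hmgcs1), 1 in Hypo males (Insig1), and 0 in PFC males and Hypo females. The share of all genes at that unadjusted threshold was 7.46% in PFC, 18.6% in PFC males, 14.5% in PFC females, 5% in Hypo, 8.5% in Hypo males, and 3.09% in Hypo females, so that 1 of 7 in PFC females was at the background. DESeq2 and limma-voom called none of the 7 in any of these comparisons. For Hypo males, where edgeR called 0 genes, 1187 genes had an unadjusted p below 0.05, DESeq2 called 12, and limma-voom called 1.

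In PFC the log2 fold changes, Ube3a2X over WT, were 0.13 for Hmgcs1 (SE 0.0688, adjusted p = 0.694), 0.10 for Idi1, 0.10 for Sqle, 0.09 for Lss, 0.08 for Cyp51, 0.10 for Dhcr7, and -0.01 for Insig1. Their median was 0.10 and that of all genes was 0.01. The 95% intervals ran from -0.02 to 0.27 for Hmgcs1 and from -0.19 to 0.18 for Insig1. In Hypo all 7 estimates were positive and small, from 0.01 for Idi1 to 0.09 for Insig1, with a median of 0.04 against -0.01 for all genes and adjusted p from 0.948 to 0.990. The 95% interval of Insig1 there ran from -0.03 to 0.22 and that of Lss from -0.04 to 0.11. Without WT female 471 they ran from 0.03 for Lss to 0.11 for Cyp51, with a median of 0.07 against 0.00 for all genes, and Idi1 moved from 0.01 to 0.08, again none called. Without it the estimates ran from 0.03 to 0.19 in Hypo males, with Insig1 at 0.15 (SE 0.0866), against 0.19 (SE 0.0826) with it, and from -0.03 to 0.09 in Hypo females, and none was called. The 7 estimates come from the same libraries and are not independent, and the shared sign was not tested.

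The values of Hmgcs1 in PFC differed most between the sexes. In PFC females, the Ube3a2X libraries had 414 to 606 CPM and the WT libraries had 303 to 471 CPM, with 4 of 5 Ube3a2X libraries above every WT library. The log2 fold change was 0.32 (SE 0.102, adjusted p = 0.305). In PFC males, the Ube3a2X libraries had 342 to 407 CPM and the WT libraries had 342 to 455 CPM, a log2 fold change of -0.07 (SE 0.0912, adjusted p = 0.726). The interaction of sex and genotype, males minus females, was -0.39 (SE 0.136, adjusted p = 0.112) and did not pass, although Hmgcs1 was the 1 gene of the 7 with an unadjusted p below 0.05 here, against 25.6% of all genes. The call turned on single libraries: adjusted p was 0.0427 without WT female 93, 0.0477 without Ube3a2X female 462, and 0.791 without WT female 397. Over all genes, 1965 were called without WT female 93 and 818 without Ube3a2X female 462, against 0 in the main test. The change was thus not particular to Hmgcs1. Over the alternatives and left-out libraries the estimate kept its sign, from -0.55 to -0.24. The other 6 genes had interaction estimates from -0.20 to 0.16 in PFC. Markers of glia and vessels had estimates of the opposite sign in the same test, positive in 10 of 10 oligodendrocyte, 6 of 6 oligodendrocyte precursor, 8 of 8 astrocyte, 6 of 6 microglia, and 6 of 6 endothelial markers, with medians from 0.16 to 0.51 and 0 called. Astrocyte markers summed to 1624 to 2321 CPM in PFC Ube3a2X females and 1553 to 2469 CPM in WT females, against 2037 to 3272 CPM in Ube3a2X males and 1619 to 2241 CPM in WT males. Oligodendrocyte precursor markers summed to 170.03 to 236 CPM in Ube3a2X females and 173 to 252 CPM in WT females, against 210 to 279 CPM in Ube3a2X males and 154 to 230 CPM in WT males. For both lists the Ube3a2X males had the highest library, and the groups overlapped. Oligodendrocyte markers summed to 919 to 1741 CPM in Ube3a2X females and 853 to 1701 CPM in WT females, against 551 to 2060 CPM in Ube3a2X males and 674 to 1446 CPM in WT males. Microglia markers summed to 285 to 394 CPM in Ube3a2X females and 294 to 432 CPM in WT females, against 377 to 441 CPM in Ube3a2X males and 293 to 398 CPM in WT males. Endothelial markers summed to 185 to 267 CPM in Ube3a2X females and 178 to 294 CPM in WT females, against 242 to 422 CPM in Ube3a2X males and 198 to 296 CPM in WT males. Sums of the neuron lists follow, Ube3a2X before WT. Neuron markers had 11976 to 16489 and 12055 to 13602 CPM in females, and 11263 to 13004 and 11449 to 12878 CPM in males. Cortical excitatory markers had 5549 to 7726 and 5891 to 8255 CPM in females, and 7009 to 10835 and 5777 to 7320 CPM in males. Inhibitory neuron markers had 858 to 1036 and 846 to 1025 CPM in females, and 771 to 1046 and 873 to 955 CPM in males. No marker of these lists was at 0, and their part in the Hmgcs1 values was not tested. AT dropout was 10.6 to 18.3 in PFC Ube3a2X females, below the 18.7 to 21.1 of every WT female, and 14.4 to 22.1 in Ube3a2X males against 15.8 to 19.96 in WT males. Intronic bases were 3.10 to 4.004% in PFC Ube3a2X males, below the 4.40 to 5.85% of every WT male, and 3.06 to 4.29% in Ube3a2X females against 3.27 to 4.92% in WT females. Correct-strand reads had a median of 99.1% in Ube3a2X males and 93.6% in WT males, and 93.9% in Ube3a2X females and 93.1% in WT females. An alternative fit replaced the surrogate variables by 2 principal components of 8 quality measures, AT dropout and intronic bases among them. It called 0 of the 7 genes in this interaction. Correct-strand reads were not among the 8 measures. Apart from this fit and the GC and length fit below, the part of these measures in the Hmgcs1 values was not tested. The part of the exon bases that Hmgcs1 shares on the opposite strand was not tested. The longest annotated transcript of Hmgcs1 has 43.13% GC. With the GC and length trend removed, the interaction estimate was -0.24 (adjusted p = 0.431).

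No gene of the 7 passed the interaction test in Hypo, where estimates ran from -0.10 to 0.20. Without WT female 471 they ran from -0.06 for Dhcr7 to 0.22 for Idi1, again none called (adjusted p = 0.999 each). Leaving it out turned the sign of Idi1 (-0.06 to 0.22), Cyp51 (-0.01 to 0.09), and Hmgcs1 (-0.10 to 0.01). Over all genes edgeR called 0% in the interaction of either tissue. At an unadjusted p below 0.05 there were 3283 genes in PFC and 913 (6.54%) in Hypo, with 0 of the 7 in Hypo, DESeq2 called 959 in PFC and 0 in Hypo, and limma-voom called 0 in both.

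**Figure D4:**
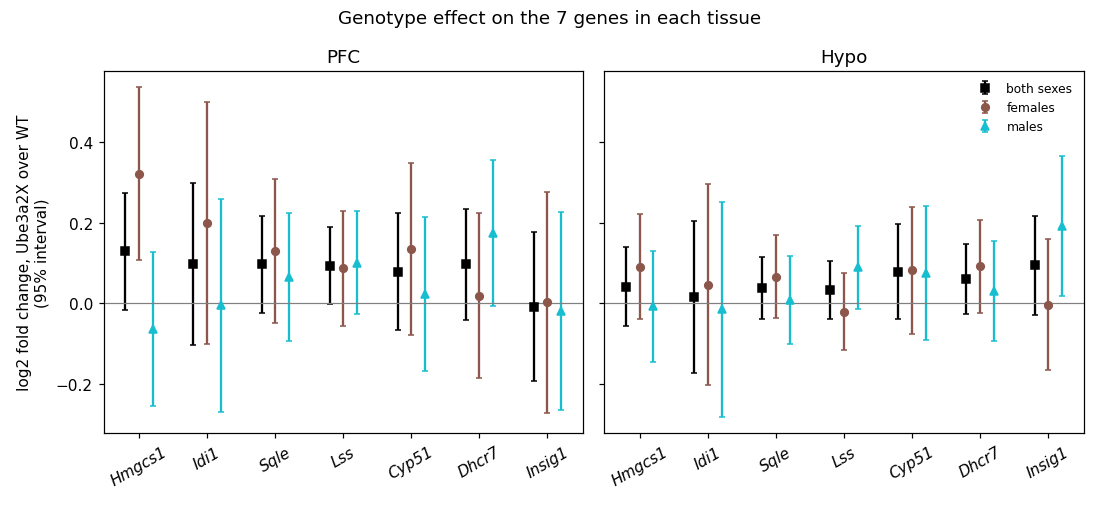
Log2 fold change, Ube3a2X over WT (y axis), with 95% interval, for each gene (x axis) in PFC and Hypo, over both sexes (squares), in females (circles), and in males (triangles). Hmgcs1 in PFC females lies highest, at 0.32, and none passed the test over all genes.

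The difference between the tissues in the genotype effect, Hypo minus PFC, was tested in the fit of all libraries. It ran from -0.16 for Cyp51 to 0.05 for Lss, with adjusted p from 0.724 to 0.997. None of the 7 passed, and 0% of all genes were called by edgeR, with 1231 genes (8.66%) and 0 of the 7 at an unadjusted p below 0.05 and 0 called by DESeq2 and by limma-voom. Without WT female 471 the difference ran from -0.19 for Idi1 to 0.10 for Insig1, with adjusted p from 0.955 to 0.997, and Lss and Dhcr7 turned from 0.05 each to -0.03 and -0.01.

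No gene of the other pathway lists was called for genotype in either tissue. In PFC, the lowest p belonged to Nsdhl, a sterol dehydrogenase gene, at a log2 fold change of 0.20 (adjusted p = 0.287), followed by Mylip at -0.24 (adjusted p = 0.344). In Hypo it belonged to Hsd17b7, at 0.16 (adjusted p = 0.948). All 5 other mevalonate genes had positive estimates in both tissues, with medians of 0.12 in PFC and 0.03 in Hypo. Oligodendrocyte markers also had positive estimates in 10 of 10 genes in both tissues, with medians of 0.17 in PFC and 0.21 in Hypo, and 0 were called. They summed to 551 to 2060 CPM in PFC Ube3a2X libraries and 674 to 1701 CPM in PFC WT libraries, and to 2686 to 3306 CPM in Hypo Ube3a2X libraries and 2213 to 3820 CPM in Hypo WT libraries. The upper end was WT female 471, and the other 7 Hypo WT libraries had 2213 to 2947 CPM. Without that library the Hypo medians were 0.24 for the oligodendrocyte markers and 0.05 for the other mevalonate genes, all still positive and none called, and Hsd17b7 had 0.20 (adjusted p = 0.688). Genotype estimates of the other marker lists are given here for Hypo only. Whether the oligodendrocyte estimates stood apart from the other lists in PFC is therefore not shown. Some other marker lists in Hypo had mostly negative estimates, with 0 called. Inhibitory neuron markers were negative in 5 of 6 genes (median -0.26, and -0.20 without WT female 471) and summed to 655 to 1092 CPM in Ube3a2X and 962 to 1267 CPM in WT libraries. Hypothalamus markers were negative in 7 of 9 (median -0.22, and -0.18 without that library), at 482 to 852 CPM in Ube3a2X and 642 to 2192 CPM in WT libraries, or 642 to 930 CPM without it. Microglia markers were negative in 6 of 6 (median -0.06 with and without it), at 235 to 269 CPM in Ube3a2X and 248 to 302 CPM in WT libraries. The oligodendrocyte precursor, astrocyte, neuron, and endothelial lists had medians from -0.01 to 0.05 in Hypo, and both cortical excitatory markers tested there were negative (median -0.14). No marker of the inhibitory, hypothalamus, or microglia lists was at 0 over the Hypo libraries. The part of these markers in the genotype estimates was not tested.

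The way the 7 genes varied together among mice was described after subtracting each group's mean from log2 CPM, so that tissue, genotype, and sex did not contribute. In PFC (20 libraries), Hmgcs1 and Sqle (Pearson r = 0.85), Idi1 and Cyp51 (0.83), Hmgcs1 and Idi1 (0.76), and Hmgcs1 and Cyp51 (0.66) varied together. Lss and Dhcr7 did not follow them, with r from -0.28 to 0.08 against Hmgcs1, Idi1, Sqle, and Cyp51. Over all 21 pairs the median was 0.08. These libraries share depth and RNA quality differences, so the values are a description.

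In Hypo the picture turned on 1 library. Over 18 libraries r ranged from -0.80 for Sqle and Lss to 0.89 for Sqle and Cyp51, and Lss varied against Cyp51 (-0.70) and Insig1 (-0.59). Without WT female 471 (17 libraries), Hmgcs1 and Idi1 reached 0.92, Idi1 and Cyp51 0.79, Sqle and Cyp51 0.79, and Hmgcs1 and Cyp51 0.70, pairs that had r of at least 0.48 in PFC. Dhcr7 then varied against Hmgcs1 (-0.62) and Idi1 (-0.63), and the median over 21 pairs was 0.35.

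**Figure D5:**
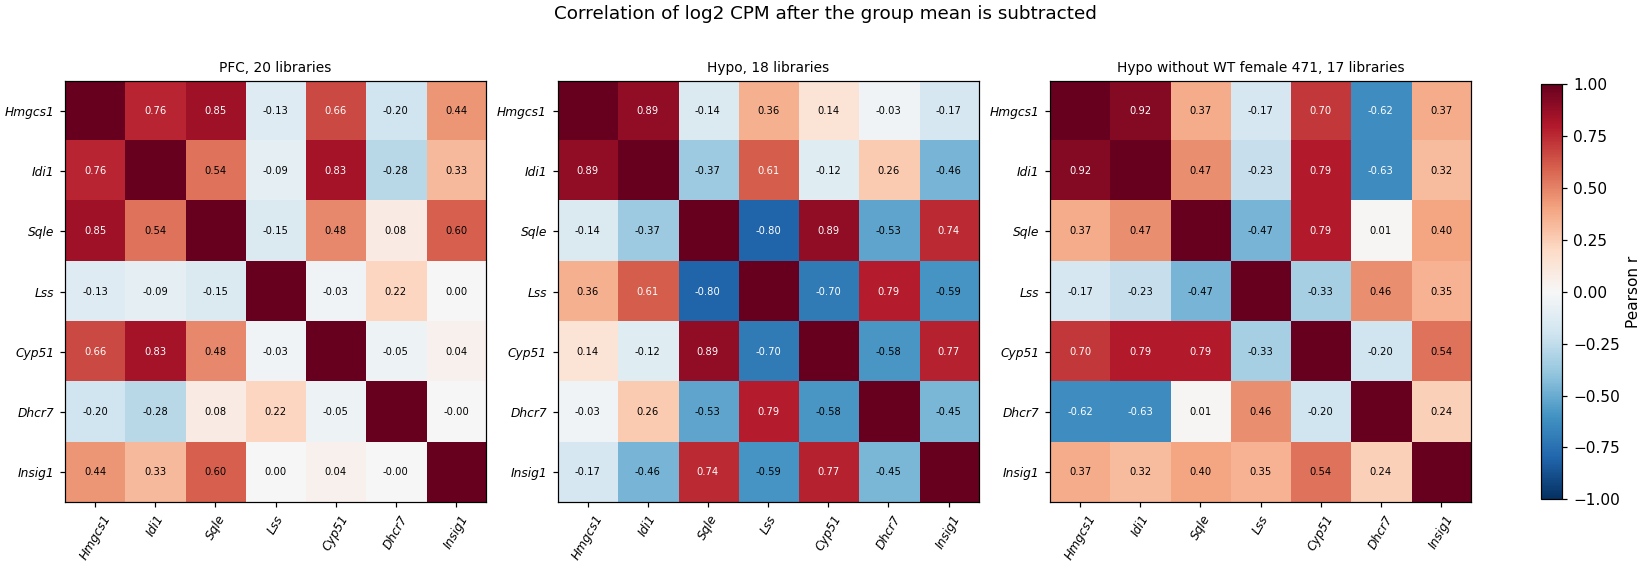
Pearson r between each pair of the 7 genes after the group means were subtracted, in PFC, in Hypo, and in Hypo without WT female 471. Color and printed value give r. Hmgcs1, Idi1, and Cyp51 form a block of high r in PFC and in Hypo without that library, and Lss and Dhcr7 stay outside it.

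Genes most like the 7 were ranked by the lower of the r in PFC and in Hypo with their mean standardized deviation, among 12562 other genes. Of the first 10, 9 are named here. They were Tada2b (0.63), Zfp454 (0.62), Zfp655 (0.61), Ttc9 (0.61), Fam13a (0.61), Nrip3 (0.60), Clgn (0.59), Smim13 (0.58), and Ipcef1 (0.58). Among the pathway lists the nearest were Stard4, a sterol carrier gene (0.57), and Sc5d, a sterol desaturase gene (0.55). Without WT female 471 the sterol oxidase gene Msmo1 ranked first (0.74), and 6 of the first 10 genes were shared with the ranking that includes it.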

How the data were processed

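PFC and hypothalamus RNA of WT and Ube3a2X mice was sequenced as stranded mRNA libraries prepared in a single batch. Per the methods and the submitters' processing notes, the authors used STAR to align the reads to GRCm38 and featureCounts to count them. The strand setting of the counting is not given in the sources used here; Hmgcs1, Idi1, Lss, and Cyp51 share exon bases with genes on the opposite strand. The deposited values are raw gene counts of 54165 genes, of which 53905 were found in GENCODE vM21. The authors also deposited quality measures, namely RIN as a score, read on an Agilent Bioanalyzer, and sequencing measures made with Picard: AT dropout as a score, base and strand shares as a fraction (converted here to percent), coverage evenness and end bias as a ratio, and aligned reads as a count.

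CPM used library sizes scaled by the trimmed mean of M values (TMM). The main test was edgeR 4.0.16 (R 4.3.3) with the quasi-likelihood F-test and Benjamini-Hochberg adjustment over all genes tested, called below 0.05. The test was fitted to the counts rather than to log2 values, and 95% intervals are the estimate plus or minus the t quantile of the fit times its SE. Hypo was compared with PFC in all 38 libraries, with the 8 groups and RIN, over genes below 100 reads in fewer than 2 libraries of a tissue. Genotype was compared per tissue with 4 groups, RIN, and 2 surrogate variables (sva 3.50.0), over 12824 genes in PFC and 13964 in Hypo. Mice are separate animals. Replicate numbers are mouse numbers, and the pairing of tissues rests on these labels. Correlations of same-mouse deviations over genes were -0.55 to 0.41 (median -0.06, 13 mice), with 3 above 0.1. They do not bear out the pairing by themselves. Alternatives included DESeq2 1.42.0, limma-voom 3.58.1, other normalizations and filters, other covariates, the mouse as a replicate block, and leaving out each library. The fits were tested on simulated data. No pair of libraries of a group agreed within sampling noise.

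The genes and lists were chosen with earlier results of these data known. The genes named were the 7 genes in full, other synthesis genes that passed, at most 2 per direction of the remaining lists by smallest p, Ube3a as a check, and the 10 genes most like the 7. Genes named outside this rule were named after their values were seen. Values of certain genes that this rule would name are left out.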

Additional observations from a re-analysis of the deposited data

Results flagged for a closer look

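In 4 of 56 gene and group combinations, 1 library lay far from the rest of its group by Dixon's criterion on log2 CPM; chance alone marks about 1 in 20. Hmgcs1 in Hypo WT males (gap over range 0.905) had WT male 403 highest, at 364 CPM against 303 CPM for the nearest. Cyp51 in the same group (0.930) had the same mouse highest, at 93.7 against 80.6 CPM. Idi1 in Hypo WT females (0.916) had WT female 471 lowest, at 10.3 against 18.1 CPM. Lss in the same group (0.871) had the same mouse lowest, at 31.3 against 46.7 CPM.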

How the results depend on the processing

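Over 38 left-out libraries the 5 calls of Hypo against PFC ranged from 3 (without Hypo WT male 423) to 6, and the genes called from 8565 to 10443. With the mouse as a replicate block in edgeR the paired fit called 2 of the 7 genes and 5872 genes in all, and without a filter on low counts 15474 genes were called. Hmgcs1, Sqle, and Dhcr7 were called in every left-out library fit, and no fold change past the test reversed. Over the 14 other settings adjusted p ran from 2.02e-09 to 0.0614 for Hmgcs1, from 2.46e-05 to 0.176 for Lss, and from 0.000419 to 0.0796 for Insig1; Lss also missed the threshold in Ube3a2X libraries alone (0.0905). Idi1 passed when RIN was left out of the model (0.27, adjusted p = 0.00535, up to 0.823 elsewhere), and the cause was not tested.

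For genotype in PFC, DESeq2 called 31 genes against 2 in the main test, filterByExpr and no filter called 1 each, and removing the GC and length trend called 4, with 1 to 5 over left-out libraries. In Hypo, DESeq2 called 7 genes against 1, filterByExpr 2, no filter 3, and quality components 3, with 1 to 8 over left-out libraries. For the PFC interaction DESeq2 called 959 genes against 0, with 0 to 1965 over left-out libraries (1965 without WT female 93, 1121 without Ube3a2X male 253, 818 without Ube3a2X female 462), and 0 to 1 of the 7 genes, Hmgcs1. In Hypo the interaction without a filter called 1 gene. The difference of genotype effects had 0 to 2 genes over left-out libraries. No other genotype fit called any of the 7. The cause of these differences was not tested.

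The SE of the genotype estimates of the 7 genes was 0.0340 to 0.0960 on the log2 scale over both sexes and 0.0450 to 0.143 within 1 sex, which limits the shifts that can be resolved with 4 or 5 mice per group.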
